A study of Mus musculus with 11 samples.

Results

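The outer dense fibres and the fibrous sheath are the accessory structures that surround the axoneme of the sperm tail, and 10 genes that encode or build them were examined by name in testis RNA of wild type and Rfx2-/- mice. The 10 genes are Odf1, Odf2, Odf3 and Odf4 for the outer dense fibres and Akap3, Akap4, Cabyr, Gapdhs, Ropn1 and Fscb for the fibrous sheath. They are 10 of the 23074 genes in the count table, and all of them passed the filter on low counts that left 15745 genes for testing. RNA-Seq was performed on decapsulated testes of 5 wild type mice (replicates 1 to 5) and 6 Rfx2-/- mice (replicates 6 to 11) at postnatal day 21 (P21). The paper describes an Rfx2-/- line of mixed background, bred from 129/Sv, C57BL/6 and FVB/N mice, and a second line backcrossed onto C57BL/6. Its methods do not say which line gave these testes. RFX2 is a transcription factor that binds X-box motifs. In the null allele, exon 7, which codes for much of the DNA binding domain, was removed from every tissue by Cre recombinase driven by an actin promoter, so the testicular somatic cells lacked it as well as the germ cells.

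The outer dense fibres are stiff, disulphide-rich cables that run beside the axonemal doublets through the midpiece and most of the principal piece. The fibrous sheath encloses the fibres and axoneme of the principal piece, and it anchors protein kinase A and enzymes of glycolysis. Most genes of both structures are transcribed after meiosis, in spermatids, and their products are assembled while the spermatid elongates. At P21 the first wave of spermatogenesis has reached early round spermatids.

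Total counts lay between 26925157 and 29769483 in wild type and between 22232097 and 27116903 in Rfx2-/- mice. A floor of 3 counts corresponded to 0.0852 to 0.106 CPM (library-size scaled counts) in wild type and 0.12 to 0.139 CPM in Rfx2-/- mice. The whole-gene count of Rfx2 was 326 ± 118 CPM (SD, n = 5) for wild type against 304 ± 14.6 CPM (SD, n = 6) for Rfx2-/- mice, with ranges of 191 to 472 and 282 to 324 CPM, which does not test for loss of exon 7 because counts were summed over the gene. The labelled tissue was checked against marker lists, and no marker of germ cells, Sertoli cells, Leydig cells, peritubular cells, macrophages or blood was at 0 in every mouse of a genotype. The summed CPM of 8 round spermatid markers spanned 165 to 776 in wild type and 448 to 1140.2 in Rfx2-/- mice. The summed CPM of 8 elongating spermatid markers, transition proteins and protamines among them, spanned 5.28 to 409 in wild type and 22.4 to 537 in Rfx2-/- mice.

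Expression of the 10 genes varied widely between mice of one genotype, and in nearly the same order of mice for each gene. Wild type replicate 1 was the highest and replicate 5 the lowest wild type mouse for 10 of 10 genes. Among Rfx2-/- mice, replicate 7 was the highest for 10 of 10 genes, and the lowest was replicate 8 for 7 genes and replicate 9 for 3. The genotypes overlapped for 10 of 10 genes, where 11.7% of all tested genes did not overlap. In bulk RNA, fewer cells of a type and less RNA per cell cannot be told apart.

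**Figure D1:**
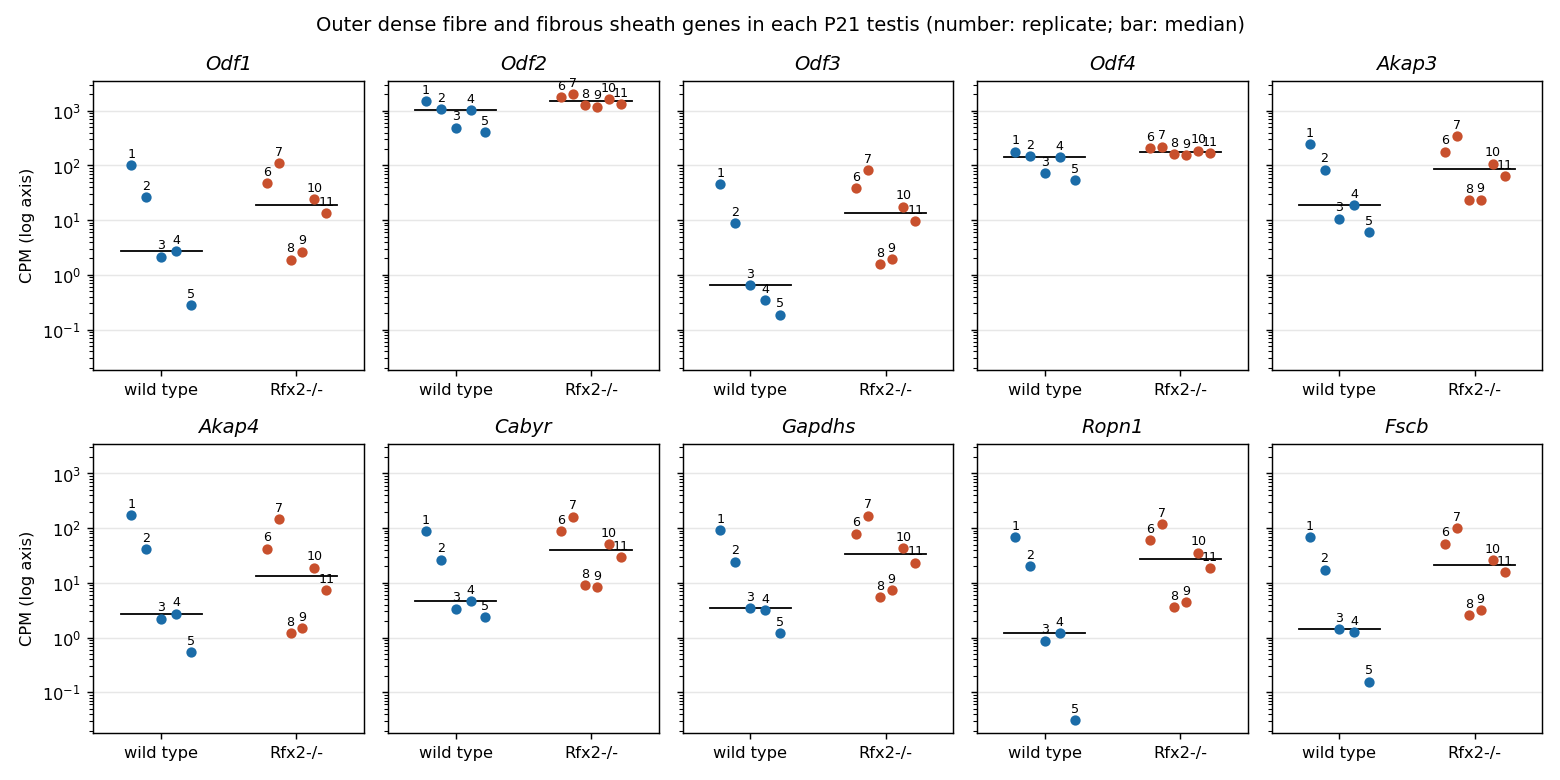
CPM of each of the 10 genes (log axis) in each P21 testis, wild type in blue and Rfx2-/- in orange, with the replicate number beside each point and a bar at the median of the genotype. Odf2 and Odf4 sit in a narrow band in both genotypes, while wild type replicate 1 lies at least 36.8-fold above replicate 5 for the other 7 genes with a ratio, and Ropn1 has 1 count in replicate 5.

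Among the outer dense fibre genes, Odf2 and Odf4 behaved differently from Odf1 and Odf3. Odf2, which encodes a structural component of the fibres and, as the isoform cenexin, of centriolar appendages, is located at chr2:29889221-29931746 (GRCm38, + strand). Its expression in wild type replicates 1 to 5 was 1509, 1073, 492, 1036 and 410.2 CPM, and Rfx2-/- mice ranged from 1189 to 2012 CPM with a median of 1479.5. Wild type replicates 3 and 5 were the low ones, and all 6 Rfx2-/- mice lay above 4 of the 5 wild type mice. Odf4 (chr11:68921835-68927081, - strand), which encodes a membrane protein of the tail, measured 179, 149, 71.6, 140.1 and 54.1 CPM in wild type and 154 to 222 CPM, median 179, in Rfx2-/- mice. The same wild type mice, replicates 3 and 5, were low, and every Rfx2-/- mouse lay above replicates 2 to 5. The highest mouse was 3.68-fold above the lowest for Odf2 and 3.3-fold for Odf4 in wild type, and 1.69-fold and 1.44-fold in Rfx2-/- mice.

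Odf1 (chr15:38219203-38226735, + strand), which encodes the major cysteine-rich protein of the fibres, measured 100.5, 26.5, 2.16, 2.70 and 0.283 CPM across wild type replicates 1 to 5. Rfx2-/- mice ranged from 1.90 to 111 CPM with a median of 18.9. The spread between wild type mice was 355-fold, and the level in replicate 5 rested on 9 counts. Odf3 (chr7:140847805-140851018, + strand), whose protein is a shippo repeat protein of the tail, measured 46.3, 8.88, 0.653, 0.350 and 0.189 CPM in wild type and 1.57 to 81.6 CPM, median 13.7, in Rfx2-/- mice. Replicates 3, 4 and 5 were all below the lowest Rfx2-/- mouse, and replicate 1 was above 5 of the 6.

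Of the fibrous sheath genes, Akap3 and Akap4 encode the anchoring proteins that make up much of the structure, and AKAP4 is the most abundant protein of the mature sheath. Akap3 (chr6:126853098-126874308, + strand) measured 243, 84.1, 10.7, 18.6 and 6.00 CPM across wild type replicates 1 to 5 and 22.9 to 343 CPM, median 85.7, in Rfx2-/- mice. Akap4 (chrX:7067519-7078609, + strand) measured 171, 41.3, 2.22, 2.73 and 0.534 CPM in wild type and 1.20 to 145 CPM, median 13.2, in Rfx2-/- mice. Akap4 was the single gene of the 10 whose highest value was in a wild type mouse, and the only one with an Rfx2-/- mean, 36 ± 55.4 CPM (SD, n = 6), below the wild type mean of 43.5 ± 73.2 CPM (SD, n = 5).

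Cabyr and Ropn1 encode proteins that dock to the A-kinase anchoring proteins, and FSCB is a calcium-binding partner of CABYR. Cabyr (chr18:12740322-12755260, + strand) measured 87.9, 26.7, 3.38, 4.66 and 2.39 CPM in wild type and 8.40 to 163 CPM, median 40.2, in Rfx2-/- mice. Ropn1 (chr16:34649921-34678618, + strand) measured 69.8, 20.1, 0.880, 1.19 and 0.0314 CPM in wild type and 3.61 to 120.5 CPM, median 27.2, in Rfx2-/- mice. Wild type replicate 5 held 1 count of Ropn1, which is under the floor, so no fold over it is given.

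Fscb, a single-exon gene at chr12:64471330-64474690 (- strand), measured 68.5, 17.4, 1.45, 1.26 and 0.157 CPM in wild type and 2.59 to 99.7 CPM, median 21.2, in Rfx2-/- mice. For all of Cabyr, Ropn1 and Fscb, the Rfx2-/- range began above wild type replicates 3, 4 and 5. Gapdhs (chr7:30729775-30743681, - strand) encodes the sperm form of glyceraldehyde 3-phosphate dehydrogenase, which is bound to the sheath. It measured 92.9, 24.5, 3.46, 3.19 and 1.23 CPM in wild type and 5.46 to 169.6 CPM, median 33.6, in Rfx2-/- mice. Gapdhs shares 157 bases of exon with the antisense gene Tmem147os, and the libraries did not mark strand.

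Per length, Odf2 and Odf4 were also the most abundant RNAs of the group. Odf2 reached 191 ± 95.8 RPKM (CPM per kilobase of exon; SD, n = 5) in wild type and 324 ± 68.2 RPKM (SD, n = 6) in Rfx2-/- mice, and Odf4 reached 105.5 ± 47.4 and 164 ± 24 RPKM. In wild type the medians of the other 8 genes followed in the order Akap3 at 5.91 RPKM, Odf1 at 2.44, Gapdhs at 2.16, Cabyr at 1.86, Ropn1 at 1.22, Akap4 at 0.903, Fscb at 0.431 and Odf3 at 0.425 RPKM. In Rfx2-/- mice the order of medians was Ropn1 at 27.9 RPKM, Akap3 at 27.2, Gapdhs at 20.9, Odf1 at 17.1, Cabyr at 16.1, Odf3 at 8.90, Fscb at 6.31 and Akap4 at 4.37 RPKM. Neighbours in either order overlapped widely between mice, because each of these 8 genes spanned more than 10-fold within a genotype. Akap4 stood in the sixth place of the 8 in wild type and in the last place in Rfx2-/- mice.

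Promoter sequences from RefSeq (GRCm38.p6) were examined because 8 of the genes varied together across mice and because RFX2 binds X-box motifs. Windows ran from 250 bases before to 50 bases after a start, and 13 windows of 8 of the 10 genes were examined. No window of Odf1 or Cabyr was examined, so the searches below say nothing about the promoters of these 2 genes. The X-box consensus was searched on both strands with at most 2 mismatches, and 13.9% of all 32851 windows held a match. It was found in the first Odf2 window as GTTTCGAGGGGAGC, starting 229 bases before the start, and in the Akap3 window as GTTGCTATAGAAAC, starting 38 bases before the start. One arm of the X-box, GTTGCC without mismatch, held by 12.5% of all windows, was found for Odf3 at 65 bases before the start. The cyclic AMP response element TGACGTCA was searched without mismatch. It was held by 1.79% of all windows and was found in none of the 13. Its core TGACG, which also matches within the whole element and was held by 20.8%, was found for Odf2 and Gapdhs. None of these motifs, within these mismatch limits, was found in the windows of Akap4, Odf4, Ropn1 and Fscb.

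Shared runs of letters were searched on the same strand between the first windows of the 28 pairs of these genes. Further windows of Odf2, Akap4 and Gapdhs were not compared. The longest run was in Akap3 and Akap4. Both windows held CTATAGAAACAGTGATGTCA, a run of 20 bases that starts 34 bases before the Akap3 start and 47 bases before the Akap4 start, and these were the only 2 of 32851 windows to hold it. The next longest run of any pair was 12 bases. The X-box match of Akap3 overlaps the beginning of this run. The last letters of the run, TGATGTCA, resemble but do not match TGACGTCA, and the first windows of Gapdhs and Fscb held them as well. Matches to that element with mismatches were not searched. The 250 bases before the start are shown for Odf2, the gene with an X-box match and the highest level, and for Akap3 and Akap4, the pair with the shared run. All are on the + strand and are written 5′ to 3′. Capitals mark the X-box match and TGACG in Odf2 (chr2:29889470-29889719, within the annotated span of the Odf2 gene) and the shared run in Akap3 (chr6:126852848-126853097) and Akap4 (chrX:7067265-7067514).
Odf2: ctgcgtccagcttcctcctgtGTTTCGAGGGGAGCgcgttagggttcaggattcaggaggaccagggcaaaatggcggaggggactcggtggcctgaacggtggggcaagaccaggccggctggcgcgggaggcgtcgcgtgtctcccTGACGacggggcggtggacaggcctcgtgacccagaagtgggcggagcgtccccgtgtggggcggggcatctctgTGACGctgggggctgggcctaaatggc
Akap3: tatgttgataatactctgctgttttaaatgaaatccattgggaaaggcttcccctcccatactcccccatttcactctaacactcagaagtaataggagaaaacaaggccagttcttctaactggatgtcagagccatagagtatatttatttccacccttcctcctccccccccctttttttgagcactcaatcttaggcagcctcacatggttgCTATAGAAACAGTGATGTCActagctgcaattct
Akap4: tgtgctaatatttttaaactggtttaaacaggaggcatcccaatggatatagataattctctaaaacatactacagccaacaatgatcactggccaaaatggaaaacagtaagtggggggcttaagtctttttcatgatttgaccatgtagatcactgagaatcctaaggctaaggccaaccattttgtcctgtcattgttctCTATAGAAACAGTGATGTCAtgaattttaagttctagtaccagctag

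To ask whether loss of RFX2 changed these genes, genotypes were compared with edgeR's quasi-likelihood test, and a gene was called at an adjusted p of at most 0.01. None of the 10 genes was called in either direction, where 1.94% of all tested genes were called lower and 0.73% higher. At an unadjusted p under 0.05, which 41.8% of tested genes passed, 2 of the 10 genes passed, Odf2 and Odf4. DESeq2 and limma voom also called 0 of the 10. Fold changes were above 0 on the log2 scale (Rfx2-/- over wild type) for 9 of the 10 genes, with a median of 0.84, while the median over all genes was -0.05. Both values rested on single mice: without wild type replicate 1 all 10 were above 0 with a median of 2.38, and without Rfx2-/- replicate 7 there were 8 with a median of 0.33. For Odf2 the log2 fold change was 0.77 (95% interval 0.07 to 1.47, adjusted p = 0.0971), and for Odf4 it was 0.63 (95% interval 0.02 to 1.24, adjusted p = 0.111). The summed CPM of 8 pachytene spermatocyte markers was low in the same wild type replicates 3 and 5. It was 4499, 4384, 2741, 4596 and 2761 in wild type replicates 1 to 5, and 4454 to 5157 in Rfx2-/- mice. The sum was highest in wild type replicate 4, whereas Odf2 and Odf4 were highest in replicate 1. Its part in the Odf2 and Odf4 differences was not tested.

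The other 8 genes had wide intervals, all of which spanned 0. Akap4 had a log2 fold change of -0.27 with an interval from -3.46 to 2.92 (adjusted p = 0.895). The remaining estimates ran from 0.35 for Odf1 (SE 1.32) to 1.23 for Cabyr (SE 1.06), with adjusted p between 0.382 for Cabyr and 0.848 for Odf1. The estimates depended on single mice, since leaving out wild type replicate 1 moved Akap4 to 1.63 and leaving out Rfx2-/- replicate 7 moved it to -1.602. Without Rfx2-/- replicate 7 Odf1 moved to -0.55 and the highest of the 10 was Odf2 at 0.67. The highest estimate was Odf3 at 3.33, without wild type replicate 1, where Ropn1 came to 2.87 and Cabyr to 2.66. No gene of the 10 was called in any of the 11 fits that left out 1 mouse.

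The 10 genes followed the level of round spermatid markers in each mouse. A round spermatid score, the mean log2 CPM of Acrv1, Acr, Spaca1, Spaca7, Zpbp, Izumo1, Crem and Tssk1, was 6.23, 5.08, 2.82, 3.61 and 1.85 in wild type replicates 1 to 5. In Rfx2-/- replicates 6 to 11 it was 6.07, 6.76, 3.79, 3.84, 5.59 and 4.90. The highest and lowest wild type mice and the highest Rfx2-/- mouse on this score were those that were highest and lowest for all 10 genes. The markers were not part of the group, and 0 of 8 were called between genotypes, with 2 at an unadjusted p under 0.05. The summed CPM of 8 Sertoli cell markers went the other way, from 2300.3 in wild type replicate 1 to 3479.9 in replicate 5 and from 2247 in Rfx2-/- replicate 7 to 2663 in replicate 9. The part of cell make-up in the genotype comparison was not tested.

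**Figure D2:**
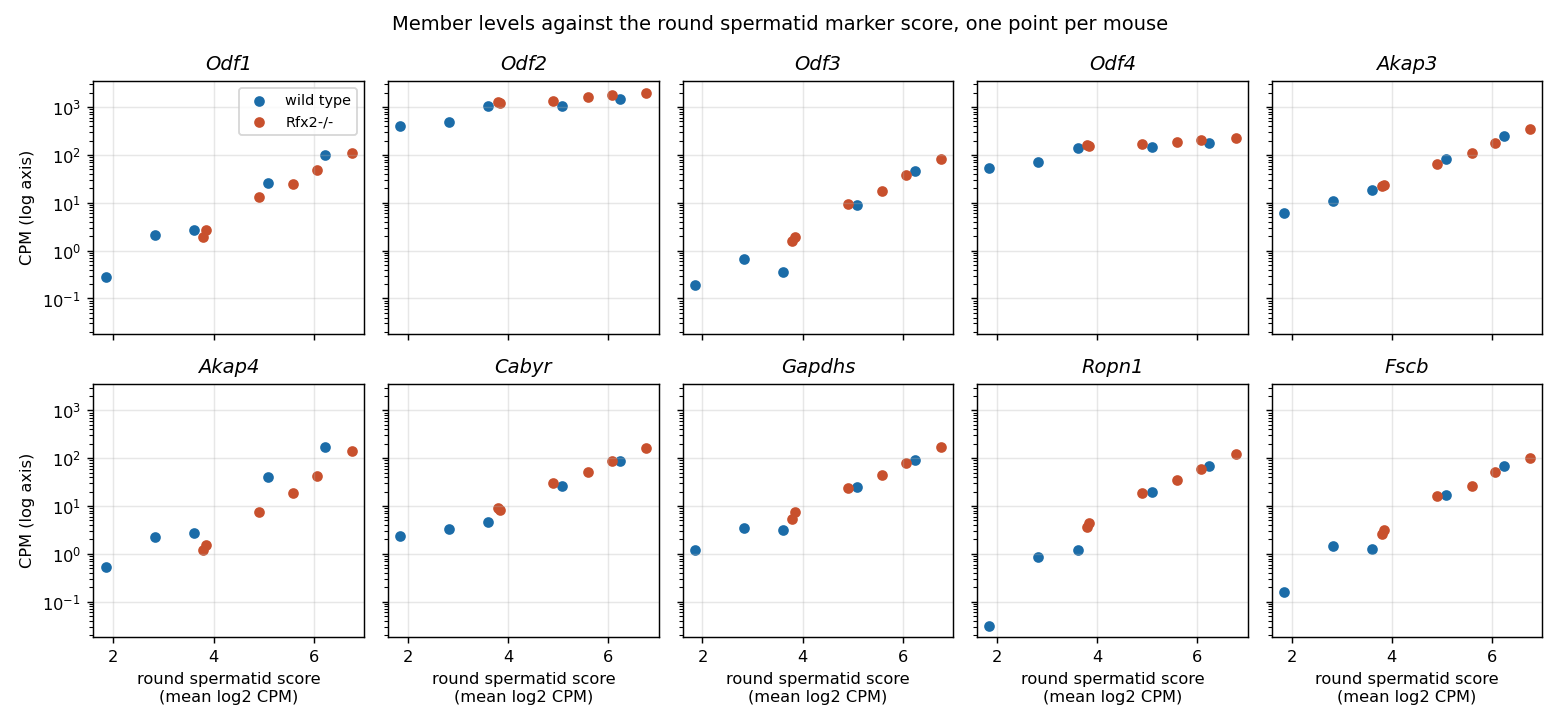
CPM of each of the 10 genes (log axis) against the round spermatid score (mean log2 CPM of 8 markers), one point per mouse, wild type in blue and Rfx2-/- in orange. Levels climb with the score for each gene, steeply for 8 of them and little for Odf2 and Odf4, and the Rfx2-/- points of Akap4 lie below wild type points of like score.

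With the round spermatid score added to the model, the genotype difference of Akap4 became large. Its log2 fold change was -1.88 (SE 0.21, 95% interval -2.33 to -1.43, adjusted p = 8.47e-05), and it stayed between -2.08 and -1.79 and past the threshold in 11 of 11 fits that also left out 1 mouse. Odf1 was called as well, at -0.87 (SE 0.17, adjusted p = 0.00669), but in only 4 of those 11 fits, with adjusted p up to 0.0412. Markers of the score itself also differed in this fit, by up to about the amount of Odf1 and by less than Akap4, though none was called. The largest differences were Spaca7 at -0.90 (adjusted p = 0.0174), Tssk1 at -0.70 (adjusted p = 0.0139) and Acr at 0.58 (adjusted p = 0.0286). In this fit 2 of the 10 genes were called lower, where 4.42% of all genes were, and 0 were called higher, where 1.83% were. Intervals of Odf3, Akap3, Cabyr, Gapdhs, Ropn1 and Fscb spanned 0, with estimates from -0.20 for Akap3 to 0.28 for Ropn1. Odf2 was at 0.45 (adjusted p = 0.0578) and Odf4 at 0.36 (adjusted p = 0.106), and both were called higher only where wild type replicate 4 was left out.

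The Akap4 call depended on which marker list stood for the stage of the testis. A further fit took the first principal component of the tested genes in place of the score. The round spermatid markers were left out of this component, but the 10 genes were kept in, so it was not independent of them. Akap4 was then at -2.09 (SE 0.23, adjusted p = 9.04e-05) and Odf1 at -1.06 (SE 0.21, adjusted p = 0.00731). These were the 2 genes of the 10 called lower, where 4.41% of all genes were called lower and 1.48% higher. With a score of 8 elongating spermatid markers in its place, Akap4 was at -0.70 (SE 0.32, 95% interval -1.41 to 0.01, adjusted p = 0.109) and Odf1 at 0.20 (SE 0.35, adjusted p = 0.66), so neither was called, and 0 of the 10 were called in that fit, where 5.05% of all genes were called lower and 3.23% higher. Of the 10 genes 6 passed an adjusted p of 0.05 in the higher direction, where 15.6% of all genes did. These were Odf2, Odf3, Odf4, Cabyr, Gapdhs and Ropn1, and the smallest adjusted p was 0.0104, for Cabyr. The elongating spermatid markers moved with Akap4 in the fit with the round spermatid score, where 7 of 8 were below 0 with a median of -0.90. Prm2 (protamine 2) was called at -2.26 (SE 0.44, adjusted p = 0.00571), and Tnp1 (transition protein 1) was at -2.06 (SE 0.49, adjusted p = 0.0155). With genotype alone, 4 of 8 were below 0 with a median of -0.02, and 0 were called. Prm2 then had an adjusted p of 0.656 and Tnp1 of 0.779. Which of these markers best stands for the stage was not tested.

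**Figure D3:**
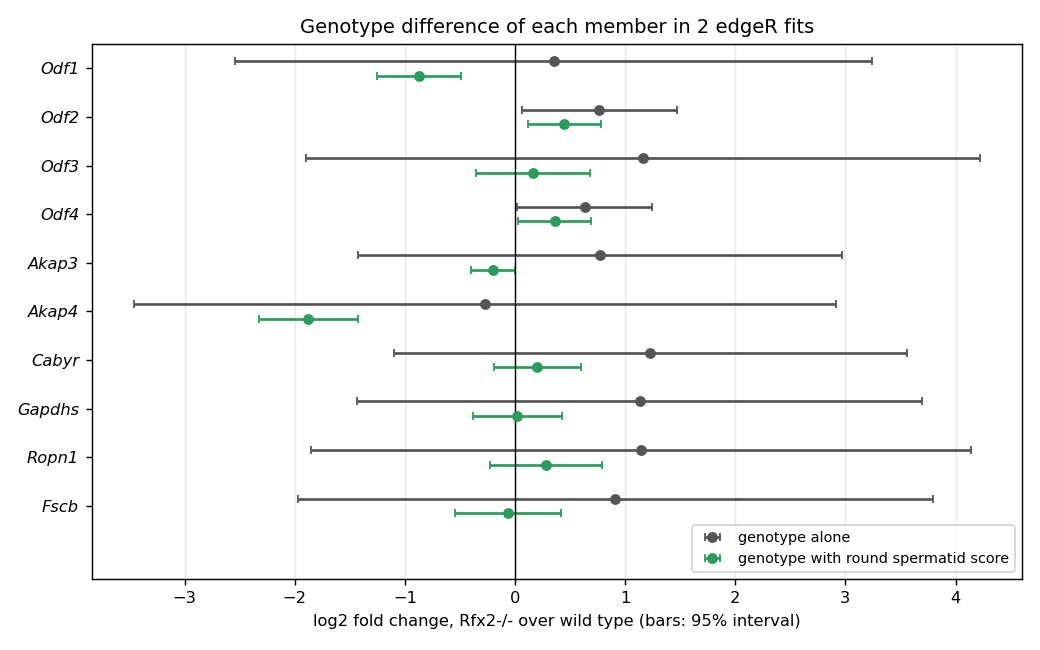
log2 fold change (Rfx2-/- over wild type) of each gene with its 95% interval, from the fit with genotype alone (grey) and from the fit with the round spermatid score (green). All grey intervals except those of Odf2 and Odf4 span 0, and the green intervals are narrower, with those of Akap4 and Odf1 below 0 and those of Odf2 and Odf4 above it.

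The make-up of fibrous sheath RNA within a mouse set Akap4 against the other sheath genes in place of a marker list. Akap4 made up 17.7, 14.8, 8.16, 7.37 and 4.55% of the summed RPKM of the 6 fibrous sheath genes in wild type replicates 1 to 5. In Rfx2-/- replicates 6 to 11 its share was 5.99, 9.95, 2.07, 2.32, 4.75 and 3.37%. The share was larger the larger the sum in Rfx2-/- mice, and in wild type mice it was largest in the 2 with the largest sums. Altogether 5 of the 6 Rfx2-/- shares lay below those of wild type replicates 1 to 4. Rfx2-/- replicate 11, with a sum of 72.9 RPKM, had a share of 3.37%, and wild type replicate 2, with a sum of 92.0 RPKM, had 14.8%. Rfx2-/- replicate 6, with a sum of 233 RPKM, had 5.99%, and wild type replicate 1, with a sum of 318 RPKM, had 17.7%. Because the sum also holds the other sheath genes, the share depends on their levels as well as on that of Akap4. These shares are a description of single mice and were not tested.

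The other 5 sheath genes are given for comparison. The share of Akap3 ran from 24.2 to 49.1% in wild type and from 22.6 to 37.9% in Rfx2-/- mice, and was smallest in the mice with the largest sums. Cabyr held 11 to 24.6% in wild type and 13.6 to 19% in Rfx2-/- mice. Gapdhs held 16.2 to 24.1% in wild type and 17.7 to 22% in Rfx2-/- mice. Ropn1 held 0.831 to 22.5% in wild type and 19.3 to 27.7% in Rfx2-/- mice, and wild type replicates 3, 4 and 5, with the smallest sums, were the low ones. Fscb held 1.21 to 6.40% in wild type and 4.01 to 6.65% in Rfx2-/- mice. The ranges of the 2 genotypes overlapped for each of these 5 genes, and for Akap4 as well.

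**Figure D4:**
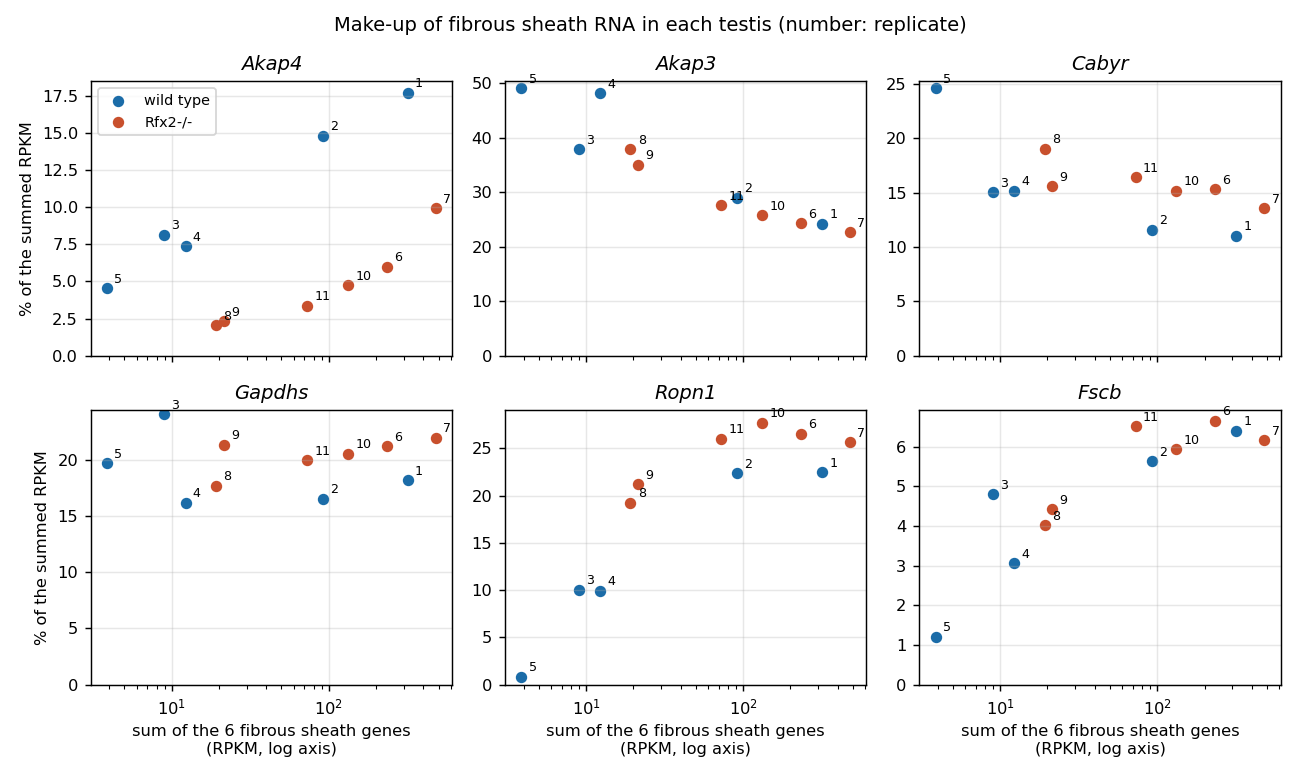
Share of each of the 6 fibrous sheath genes in their summed RPKM (%) against that sum (RPKM, log axis), one point per mouse with its replicate number, wild type in blue and Rfx2-/- in orange. The Akap4 shares of Rfx2-/- mice, 2.07 to 9.95%, lie below the wild type mice nearest to them in sum, and for Akap3 the points of both genotypes run together, from 49.1% at the smallest sum to 22.6% at the largest.

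Other genes of the tail were read from lists of outer dense fibre, fibrous sheath, connecting piece and annulus, and mitochondrial sheath genes. Of 9 other outer dense fibre genes tested (Odf3l2 was not tested), 1 was called lower and 0 higher, beside 1.94% and 0.73% of all tested genes, and 4 had an unadjusted p under 0.05. The gene called was Ccdc42, whose coiled-coil protein is needed to build the sperm tail. It measured 98.3, 75.4, 27.2, 70.4 and 24.4 CPM across wild type replicates 1 to 5, and between 3 and 9 counts in every Rfx2-/- mouse, 0.131 to 0.400 CPM. The groups did not overlap, and the log2 fold change was -7.78 (SE 0.48, adjusted p = 1.09e-05). Ccdc42 was thus low in Rfx2-/- replicate 7, where each of the 10 genes was at its Rfx2-/- maximum.

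Of 12 other fibrous sheath genes, 0 were called by edgeR in either direction, with 3 at an unadjusted p under 0.05, a smaller share than the 41.8% of all tested genes. Ldhc, the germ cell lactate dehydrogenase and the most abundant of them, measured 2209.5 ± 899.7 CPM (SD, n = 5) for wild type against 3201 ± 386 CPM (SD, n = 6) for Rfx2-/- mice (log2 fold change 0.53, adjusted p = 0.136). Spa17, which encodes a protein that docks to A-kinase anchoring proteins, was named after its values were seen. It measured 79.9 to 236 CPM in wild type and 332 to 513 CPM in Rfx2-/- mice without overlap, as did 11.7% of tested genes, and its log2 fold change of 1.39 just missed the threshold (adjusted p = 0.012).

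Of 10 connecting piece and annulus genes, 1 was called higher, Cntrob, which encodes the centriolar protein centrobin. It measured 59.3 to 84 CPM in wild type and 96.9 to 106 CPM in Rfx2-/- mice (log2 fold change 0.45, SE 0.08, adjusted p = 0.00885), a call that was lost when any 1 of 9 of the mice was left out. Of 8 mitochondrial sheath genes 0 were called by edgeR, with 1 at an unadjusted p under 0.05, again a smaller share than the 41.8% of all genes. Gk2, a glycerol kinase of germ cells, was the most abundant at 308 ± 173 CPM (SD, n = 5) for wild type against 355 ± 74 CPM (SD, n = 6) for Rfx2-/- mice (adjusted p = 0.668). Of 12 axonemal dynein heavy chains, which build the motor arms that the fibres and sheath surround, 1 was called lower, Dnah10. It measured 40.6 to 171 CPM in wild type and 10.1 to 14.4 CPM in Rfx2-/- mice, with a log2 fold change of -2.998 (SE 0.30, adjusted p = 0.000203). The medians of the 5 lists lay between 0.19 and 0.53 on the log2 scale.

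**Figure D5:**
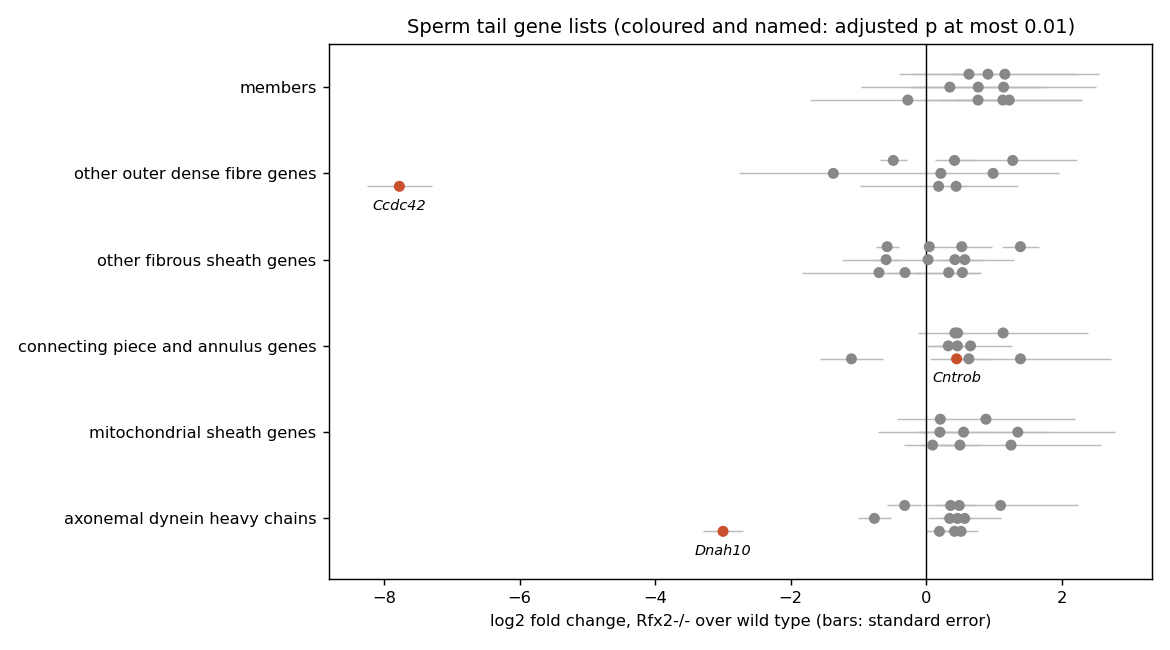
log2 fold change (Rfx2-/- over wild type, fit with genotype alone) of each tested gene in the 10 members and 5 further lists of sperm tail genes, with bars for 1 standard error. Ccdc42 at -7.78, Dnah10 at -2.998 and Cntrob at 0.45 are the only genes past an adjusted p of 0.01, shown coloured and named.

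With the round spermatid score in the model, more of these tail genes were called lower. The list of other outer dense fibre genes held 3 called lower and 0 higher, the other fibrous sheath genes 3 lower and 1 higher, the connecting piece and annulus genes 1 lower and 1 higher, the mitochondrial sheath genes 1 lower and the dynein heavy chains 2 lower, beside 4.42% of all genes called lower and 1.83% higher. The genes, named after their values were seen, were Odf3l1 at -2.94, Ccdc42 at -8.25, Tssk4 at -0.93, Akap14 at -1.82, Aldoart1 at -1.09, Rhpn1 at -0.73, Dnajb13 at -1.57, Spata19 at -0.60, Dnah6 at -0.996 and Dnah10 at -3.28 in the lower direction, and Spa17 at 1.12 and Cntrob at 0.38 in the higher direction, all as log2 fold changes. With the elongating spermatid score in its place, Ccdc42 (-7.96), Rhpn1 (-0.64), Dnajb13 (-1.28), Dnah6 (-0.84), Dnah10 (-3.09), Spa17 (1.28) and Cntrob (0.42) remained past the threshold, and Odf3l1 (-1.82, adjusted p = 0.0111), Tssk4, Akap14, Aldoart1 and Spata19 did not. In that fit Oaz3, which encodes the antizyme of haploid germ cells, was newly called higher at 0.83 (adjusted p = 0.00824), from 0.14 (adjusted p = 0.71) with the round spermatid score. Akap4 and Odf1 were likewise past the threshold with the round spermatid score and not with the elongating spermatid score.

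The genes whose pattern over the 11 mice was most like the mean log2 CPM of the 10 genes were Pdilt, Spata21, Aldoart2, Spaca4 and Fam83e. Pearson's r across the 11 mice was 0.999 for Pdilt and 0.998 for the other four. The 11 points share the differences in round spermatid score between mice, and this likeness is a description.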

How the data were processed

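Testis RNA of 5 wild type and 6 Rfx2-/- mice was analysed at P21. According to the submitters' processing notes and the study's methods, single reads from TruSeq libraries, which do not mark strand, were processed with CASAVA 1.8.2 and STAR 2.4 against GRCm38, reads with several alignments were discarded, and reads on merged exons of protein coding isoforms were counted with featureCounts 1.4.6, leaving out reads on exons of different genes. Raw counts were deposited for 23074 genes, of which 22293 matched a GENCODE vM21 symbol. Total counts were 22232097 to 29769483 per mouse. Of 25 pairs of mice within a genotype, none agreed within sampling noise (lowest chi-square per degree of freedom 3.94).

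Genotypes were compared with edgeR 4.0.16 in R 4.3.3 (filterByExpr, TMM, glmQLFit and glmQLFTest, Benjamini-Hochberg over 15745 genes, called at 0.01 or less). CPM used TMM-scaled library sizes, log2 CPM a prior count of 2, and RPKM the merged protein coding exon length. The code was tested on simulated data. Alternatives were DESeq2 1.42.0, limma 3.58.1 voom, other scalings and filters, an adjusted p of 0.05, a round spermatid score as covariate and each mouse left out. The fits with the first principal component, with an elongating spermatid score, and with the score and a mouse left out were chosen after seeing the data. The members and gene lists were chosen with earlier results of these data known. All 10 members were named. From each other tail list, up to 3 genes called lower and up to 3 called higher by size of log2 fold change were named, or the most abundant gene where none was called; marker lists are given by their sums; and the 5 genes with the highest Pearson r to the members' mean log2 CPM were named. Smcp is in both the mitochondrial sheath and elongating spermatid lists. The floor of 3 counts covers counting error only.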

Additional observations from a re-analysis of the deposited data

Results flagged for a closer look

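Of 20 sets of mice examined (10 genes in 2 genotypes), 8 held 1 mouse that stood apart from the rest on the CPM scale. The rule sets apart about 1 in 20 by chance where values are normally distributed. CPM of most of these genes was strongly skewed towards high values, so the 8 cannot be set against that rate. Wild type replicate 1 stood above the other wild type mice for Odf1 (100.5 CPM), Odf3 (46.3 CPM), Akap4 (171 CPM), Cabyr (87.9 CPM), Gapdhs (92.9 CPM), Ropn1 (69.8 CPM) and Fscb (68.5 CPM). Rfx2-/- replicate 7 stood above the other Rfx2-/- mice for Akap4 (145 CPM). These 2 mice also had the highest round spermatid scores of their genotypes, 6.23 and 6.76, and the genes are not independent of each other.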

How the results depend on the processing

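No paired analysis was possible because the labels name no litter or pair. The paper states that it used littermates of the same age where it could, so a litter effect cannot be told apart here. All 10 genes kept the direction of their fold change and stayed not called under 8 alternatives without a covariate (scaling by DESeq2's size factors or total counts, DESeq2, limma voom, a robust prior, both filters, each at 0.01, and the main fit at 0.05), with a lowest adjusted p of 0.0362, for Odf2. Total counts moved the median of all genes from -0.05 to -0.22. The genes called lower and higher over all genes, 305 and 115, became 911 and 1146 with DESeq2, 682 and 367 with limma voom, 1382 and 968 at an adjusted p of 0.05, 696 and 288 with the round spermatid score, 695 and 233 with the first principal component and 795 and 509 with the elongating spermatid score. Leaving out 1 mouse gave 184 to 393 lower and 45 to 192 higher, with 184 to 195 lower without wild type replicate 2 or Rfx2-/- replicates 6, 8 or 10, 45 to 63 higher without wild type replicate 2 or 3 or any Rfx2-/- mouse, and 192 higher without wild type replicate 1. Calls on the 4 accessory lists, 1 lower and 1 higher, became 2 lower with total counts, 4 higher with DESeq2, 2 and 2 with limma voom, 2 and 4 at 0.05, 8 and 2 with the round spermatid score, 9 and 2 with the first principal component and 3 and 3 with the elongating spermatid score, and 1 lower and 0 to 2 higher with 1 mouse left out. Members called lower were 2 with the round spermatid score and 2 with the first principal component, and with the score and 1 mouse left out 1 to 2 lower and 0 to 2 higher. The cause was not tested.

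Signs turned with the round spermatid score for Odf1 (-0.87), Akap3 (-0.20) and Fscb (-0.065), and with the first principal component for Odf1 (-1.06), Odf3 (-0.010), Akap3 (-0.33), Gapdhs (-0.13) and Fscb (-0.24). With 1 mouse left out, over the fits with and without the score together, the log2 fold change spanned -0.97 to 2.09 for Odf1, 0.0056 to 3.33 for Odf3, -0.25 to 2.05 for Akap3, -2.08 to 1.63 for Akap4, 0.11 to 2.66 for Cabyr, -0.090 to 2.77 for Gapdhs, 0.14 to 2.87 for Ropn1 and -0.20 to 2.72 for Fscb.

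Low counts limited the spread: Ropn1, Fscb, Odf3 and Odf1 in wild type replicate 5 rested on 1, 5, 6 and 9 counts.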
